A study of Mus musculus and Rattus norvegicus with 18 samples.

Results

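Heart RNA of mice with a conditional knockout of Mettl1 (labelled M1cKO, here cKO) was compared with heart RNA of controls (Ctrl), both C57BL/6 and 4 weeks old. The comparison rests on 2 cKO and 2 Ctrl libraries of the 18 samples in the series, and on all genes that passed a low-count filter, which were 14088 of the 55487 gene IDs in the table. A further 2 cKO and 2 Ctrl heart libraries of ribosome footprints, the RNA stretches covered by ribosomes, are used to give a second value for genes named from RNA. The labels do not give the Cre driver, the deleted exons, the genotype of the controls beyond Ctrl, the sex of the mice or whether the 2 libraries of a genotype came from separate animals. The p-values therefore measure only the spread between these libraries, which may be technical. The RNA libraries held 16.84 and 15.05 M counts in cKO and 15.96 and 16.2 M counts in Ctrl.

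Mettl1 is the catalytic subunit, and Wdr4 the partner subunit, of the enzyme that places N7-methylguanosine on a set of tRNAs. In the weeks after birth the mouse heart moves from growth by cell division, which needs histones for new chromatin, to growth by cell size, which needs ribosomes, and takes on the ion channels, receptors and membrane systems of adult muscle. The gene families below cover chromatin, ribosome building, protein removal, excitation, signalling, cell contacts and presentation of antigens. Only hearts of 4 weeks were measured, so a link of these families to growth after birth was not tested.

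Mettl1 RNA had 2.49 and 2.52 CPM (a gene's counts scaled to a common library size with TMM factors) in cKO libraries, against 4.31 and 3.76 CPM in Ctrl libraries. Both cKO libraries were below both Ctrl libraries, with a log2 fold change of cKO over Ctrl of −0.69 (SE 0.24). The adjusted p of 0.0664 (edgeR quasi-likelihood test, Benjamini-Hochberg over all tested genes) missed the threshold of 0.05. Footprints on Mettl1 fell by 1.54 on the log2 scale (edgeR adjusted p = 1.0e-04). Eef1akmt3 overlaps the gene, and the labels do not state whether counting used strand. Wdr4 had 9.72 and 8.21 CPM in cKO, against 8.04 and 7.32 CPM in Ctrl, and did not pass the test (edgeR adjusted p = 0.383). Of 18 tested genes within 250 kb of Mettl1 on chromosome 10, Ddit3, a stress-response transcription factor, rose by 1.16 and Slc26a10 fell by 0.42. The call of Slc26a10 was lost in DESeq2, with library totals, and without cKO 1 or Ctrl 1.

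Of the 14088 genes tested, 14.4% passed an adjusted p of 0.05: 8.16% (1150 genes) were higher and 6.26% (882 genes) lower in cKO. Scaling by library totals instead moved the split to 1769 higher and 506 lower. Leaving out cKO 1 gave 634 higher and 521 lower, and leaving out cKO 2 gave 872 higher and 603 lower. A change of at least 2-fold was reached by 265 higher (1.88%) and 27 lower genes (0.192%). Both cKO libraries lay on the same side of both Ctrl libraries in 55.0% of all tested genes, called or not, which is the background for each statement below that they were apart. Because whole hearts were measured, fewer cells of a type and less RNA per cell cannot be told apart. Summed markers of cardiomyocytes were 53169 and 53513 CPM in cKO, against 58469.7 and 57901 CPM in Ctrl, with 6 of 10 lower. Erythroid markers summed to 2491 and 1592 CPM in cKO, against 1455 and 1590.3 CPM in Ctrl, so cKO 1 carried the most red cell RNA. Mitochondrial transcripts took 22.942% and 23.511% of counts in cKO, against 25.642% and 26.273% in Ctrl. Markers of thymus and lung were at or near 0, and Foxn1, Scgb1a1 and Sftpc had no count. Among 170 groups of genes that share a name stem and have at least 10 tested members, histone genes with Hist symbols had the highest share called, at 70.6%, a share that includes 5 risen genes that missed the low-count filter in a Ctrl library.

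**Figure D1:**
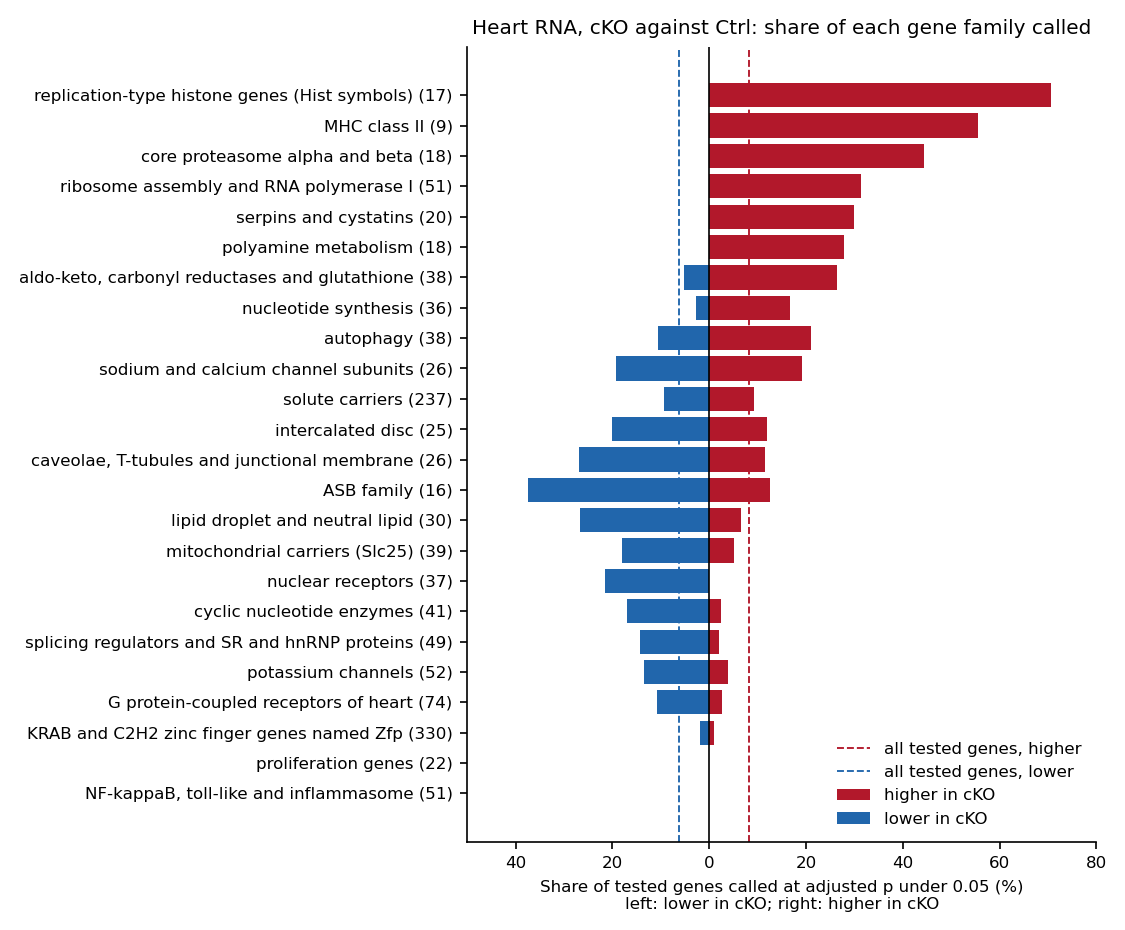
Bars give the share (%) of the tested genes of each family that were higher in cKO (right, red) or lower in cKO (left, blue) at an adjusted p under 0.05, with the number tested in brackets; dashed lines mark the shares over all tested genes, 8.16% and 6.26%. Histone genes, MHC class II and core proteasome subunits extend furthest to the right, and the ASB family furthest to the left, while Zfp, proliferation and NF-kappaB genes show few or no calls. The histone share includes 5 risen genes that missed the low-count filter in a Ctrl library.

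Most of the histone genes that could be measured had higher RNA counts in cKO hearts. The table lists 70 genes with Hist symbols, the gene clusters that supply histones to replicating chromatin, of which 17 passed the low-count filter: 12 rose and none fell. The filter asked for 0.622 CPM in at least 2 libraries, and 7 of the 17 missed it in a Ctrl library, so those passed mainly through their cKO libraries and their count carries no weight. Of the 10 that reached it in both Ctrl libraries, 7 rose. Hist1h1c, a linker histone and the most abundant member, had 104 and 105 CPM in cKO, against 66.2 and 65.2 CPM in Ctrl (log2 fold change 0.67, SE 0.06, edgeR adjusted p = 5.8e-06). Both cKO libraries were well above both Ctrl libraries, and the libraries of a genotype nearly coincided.

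Hist1h2bc, a core H2B gene, had 64.0 and 61.7 CPM in cKO, against 33.6 and 35.6 CPM in Ctrl (0.86, SE 0.08, edgeR adjusted p = 2.7e-06). Hist1h4i, which encodes H4, had 12.4 and 10.0 CPM in cKO, against 2.51 and 1.97 CPM in Ctrl, a 5.0-fold higher level (edgeR adjusted p = 2.1e-06). Hist1h2be had 9.31 and 8.79 CPM in cKO, against 4.70 and 4.33 CPM in Ctrl (1.0, edgeR adjusted p = 7.1e-04). For each of these genes no cKO library overlapped a Ctrl library. The linker histone genes Hist1h1e and Hist1h1d and the H2A gene Hist1h2ac, all with low Ctrl levels, rose by 1.5, 1.74 and 2.39. Hist1h1d missed the low-count filter in Ctrl 1 and Hist1h2ac in both Ctrl libraries, so the rises of Hist1h1d and Hist1h2ac carry no weight. Hist2h2be, on chromosome 3 rather than in the large cluster on chromosome 13, rose by 0.72 (16.5 and 17.6 CPM in cKO, against 11.8 and 8.91 CPM in Ctrl). The calls of Hist1h3d, Hist1h3f, Hist1h3i and Hist1h4h were lost at least in DESeq2 and without cKO 1, which left 8 risen genes in each. Histone genes are near-identical copies, and the handling of reads that fit more than 1 copy is not stated in the labels, so values of single members are uncertain.

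Of 22 tested genes of DNA replication and mitosis none passed edgeR's test, against 14.4% of all genes, and the median log2 fold change was −0.10. At an unadjusted p under 0.05 there were 2 of them, and DESeq2 and limma-voom called 0 and 0. Without Ctrl 2, 2 rose and 1 fell, and without cKO 2, 1 fell. Mki67, a nuclear protein of dividing cells, had 6.77 and 9.76 CPM in cKO, against 11.7 and 9.74 CPM in Ctrl, so the libraries overlapped. Top2a, the topoisomerase of dividing cells, had 8.56 and 7.05 CPM in cKO, against 7.92 and 10.3 CPM in Ctrl, and overlapped as well. Of 12 genes for the processing of replication-type histone mRNA none passed edgeR's test, 1 had an unadjusted p under 0.05, and DESeq2 and limma-voom called 0 and 0; Slbp, which binds the stem-loop at the end of these mRNAs, had 11.3 and 11.4 CPM in cKO, against 11.7 and 12.3 CPM in Ctrl. Replication-type histone mRNAs mostly lack a poly(A) tail, and the labels do not say whether the libraries were selected for poly(A) RNA. Of 12 tested variant histone genes outside the Hist symbols 3 rose; H2afj, an H2A variant, had 16.6 and 18 CPM in cKO, against 9.85 and 11.5 CPM in Ctrl (0.69, edgeR adjusted p = 0.00149). H2afy and H1f0 also passed, but not in DESeq2 or without cKO 1 or cKO 2, and not without Ctrl 2 for H2afy or Ctrl 1 for H1f0. In footprints 2 of 15 tested genes with Hist symbols rose, Hist1h2bc by 0.87 (edgeR adjusted p = 4.5e-05) and Hist2h2be by 0.94 (0.00163). In cKO, Hist1h1e had 3.82 and 5.49 CPM in RNA but 40.6 and 43.8 CPM in footprints, where its change was 0.13. Hist1h1d had 2.20 and 2.33 CPM in RNA but 24.1 and 29.3 CPM in footprints (0.14). Hist1h1c went the other way, with 104 and 105 CPM in RNA and 25.1 and 25.8 CPM in footprints (0.03). How fully the RNA libraries captured histone mRNAs was not tested.

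**Figure D2:**
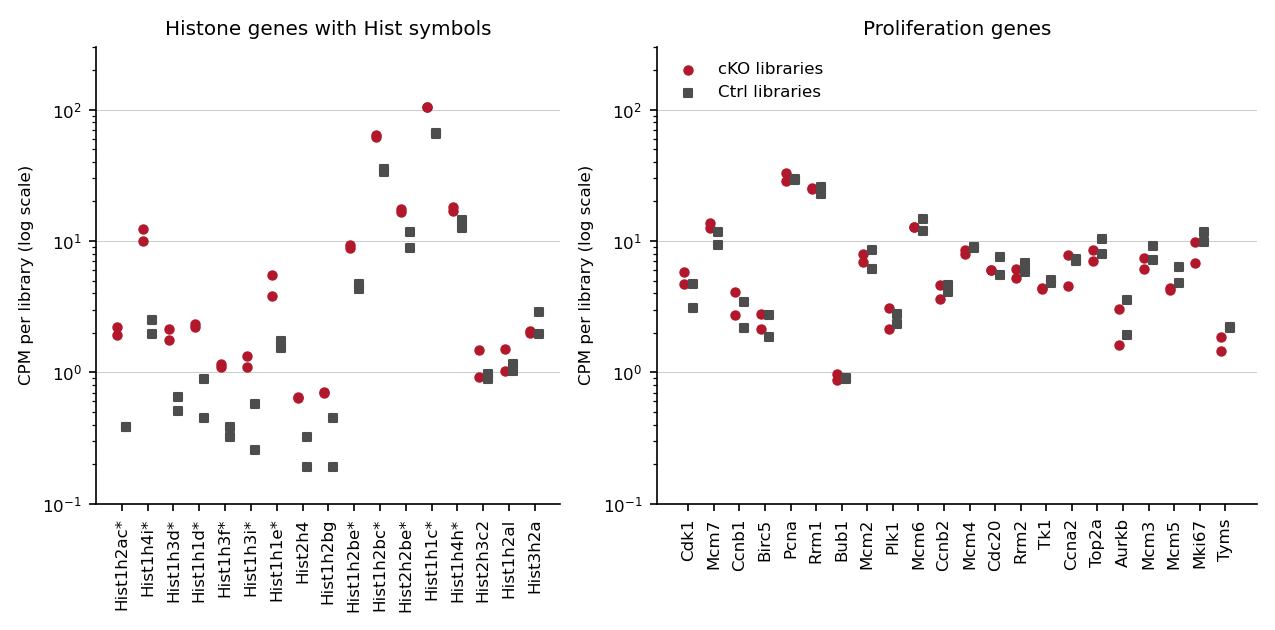
Points give CPM (log scale) in each library, with cKO libraries (red circles) left of Ctrl libraries (grey squares); an asterisk marks genes at an adjusted p under 0.05. The 12 marked histone genes show both cKO libraries above both Ctrl libraries, whereas none of the 22 proliferation genes is marked.

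The promoters of the linker histone genes Hist1h1c, Hist1h1d and Hist1h1e and of the H2A gene Hist1h2ac hold short elements known from histone promoters. They are shown for these elements and not for their rise, as Hist1h1d and Hist1h2ac missed the low-count filter in Ctrl. The sequences are the 250 bases before the annotated start on the gene's own strand, from RefSeq (GRCm38.p6), which held 12 of the 17 tested genes. Capitals mark the H1 box AAACACA, known from linker histone promoters, or the octamer ATTTGCAT in either orientation, known from H2A and H2B promoters. Hist1h1c lies at chr13:23738557-23738806 on the plus strand, Hist1h1d at chr13:23554782-23555031 on the plus strand, Hist1h1e at chr13:23622559-23622808 on the minus strand and Hist1h2ac at chr13:23683960-23684209 on the minus strand.
Hist1h1c: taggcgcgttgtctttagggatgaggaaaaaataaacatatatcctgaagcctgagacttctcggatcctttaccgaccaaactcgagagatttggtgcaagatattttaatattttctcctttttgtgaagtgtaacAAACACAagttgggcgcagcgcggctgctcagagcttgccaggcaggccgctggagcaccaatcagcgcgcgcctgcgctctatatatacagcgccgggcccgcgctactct
Hist1h1d: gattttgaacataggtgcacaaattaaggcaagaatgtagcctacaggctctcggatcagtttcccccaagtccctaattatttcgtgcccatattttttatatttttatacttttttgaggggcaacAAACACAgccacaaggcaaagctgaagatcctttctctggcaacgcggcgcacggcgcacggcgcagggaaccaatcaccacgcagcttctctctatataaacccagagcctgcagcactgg
Hist1h1e: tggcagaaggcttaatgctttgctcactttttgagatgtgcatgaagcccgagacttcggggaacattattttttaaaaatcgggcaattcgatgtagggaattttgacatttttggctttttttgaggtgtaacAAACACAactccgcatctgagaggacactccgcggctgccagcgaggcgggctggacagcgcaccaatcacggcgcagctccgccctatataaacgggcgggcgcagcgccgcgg
Hist1h2ac: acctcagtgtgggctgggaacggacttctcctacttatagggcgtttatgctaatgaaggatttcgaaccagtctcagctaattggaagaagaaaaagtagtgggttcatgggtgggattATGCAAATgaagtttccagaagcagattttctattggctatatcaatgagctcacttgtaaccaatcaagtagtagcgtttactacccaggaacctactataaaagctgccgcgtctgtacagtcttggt
The H1 box begins 112, 122 and 115 bases before the start in Hist1h1c, Hist1h1d and Hist1h1e. With both strands searched it occurred in 3 of the 12 promoters, against 7.2% of 27025 promoters of all genes. The octamer occurred in 4 of the 12, against 1.81% of all promoters, and CCAAT in 9 of the 12, against 37.49%. TATAAA occurred in 7 of the 12, against 14.33%. Among the 9 of these promoters whose gene rose, the H1 box occurred in 3, the octamer in 2, CCAAT in 7 and TATAAA in 6. Whether the elements differ between risen and other histone genes was not tested. Matches could overlap one another, and a match is a description of the letters, not of binding.

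Genes for building ribosomes rose in a second group. Of 51 tested genes of the nucleolus and of RNA polymerase I 16 rose and none fell (median 0.17). Rrp12, needed for export of ribosomal subunits, had 34.1 and 31.7 CPM in cKO, against 18 and 12.3 CPM in Ctrl (1.12, SE 0.13, edgeR adjusted p = 4.5e-05). Nhp2, a core protein of the H/ACA particles that pseudouridylate rRNA, had 23.6 and 22.7 CPM in cKO, against 12.3 and 11.3 CPM in Ctrl (0.97, SE 0.11, edgeR adjusted p = 2.7e-05). In both genes each cKO library was above each Ctrl library. Myc, the transcription factor that drives ribosome building, had 8.39 and 9.89 CPM in cKO, against 4.12 and 4.65 CPM in Ctrl (1.05, edgeR adjusted p = 7.1e-04). Nop16 and Rrp1, proteins of large-subunit assembly, rose by 0.73 and 0.34. Without cKO 1 the list held 9 risen genes, and in DESeq2 also 9. In footprints 23 of the 51 rose and 1 fell, where 9.11% of all genes rose. Snhg15, a host gene of small nucleolar RNAs, had 3.01 and 3.23 CPM in cKO, against 1.03 and 0.700 CPM in Ctrl (1.84, edgeR adjusted p = 0.00128).

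Several genes of nucleotide and polyamine metabolism rose as well, each in both libraries. Uck2, which phosphorylates uridine and cytidine in the salvage route, had 117 and 113 CPM in cKO, against 55.9 and 52.9 CPM in Ctrl (1.08, SE 0.07, edgeR adjusted p = 5.6e-08). Upp1, uridine phosphorylase, had 17.6 and 15.8 CPM in cKO, against 6.89 and 5.60 CPM in Ctrl (1.42, SE 0.14, edgeR adjusted p = 9.6e-06). Both genes were about as high in one cKO library as in the other and did not overlap with Ctrl. Ctps, which makes CTP, and Atic, of purine synthesis, rose by 0.66 and 0.70. Of 36 tested nucleotide genes 6 rose and 1, Prps1, fell (median 0.04), so 19.4% were called, beside 14.4% of all genes. The call of Prps1 was lost in DESeq2, with library totals and without cKO 2. Of 18 tested polyamine genes 5 rose and none fell: Odc1, the first enzyme of the route, by 0.32, Azin1, which frees Odc1 from its inhibitor, by 0.43, Srm, spermidine synthase, by 0.61, Eif5a, which carries hypusine made from spermidine, by 0.23, and Mtap by 0.31. The calls of Srm without cKO 2, of Eif5a without cKO 1, and of Mtap in DESeq2 and without cKO 1, cKO 2 or Ctrl 1 were lost, and the risen polyamine genes numbered 3 without cKO 1 or cKO 2.

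**Figure D3:**
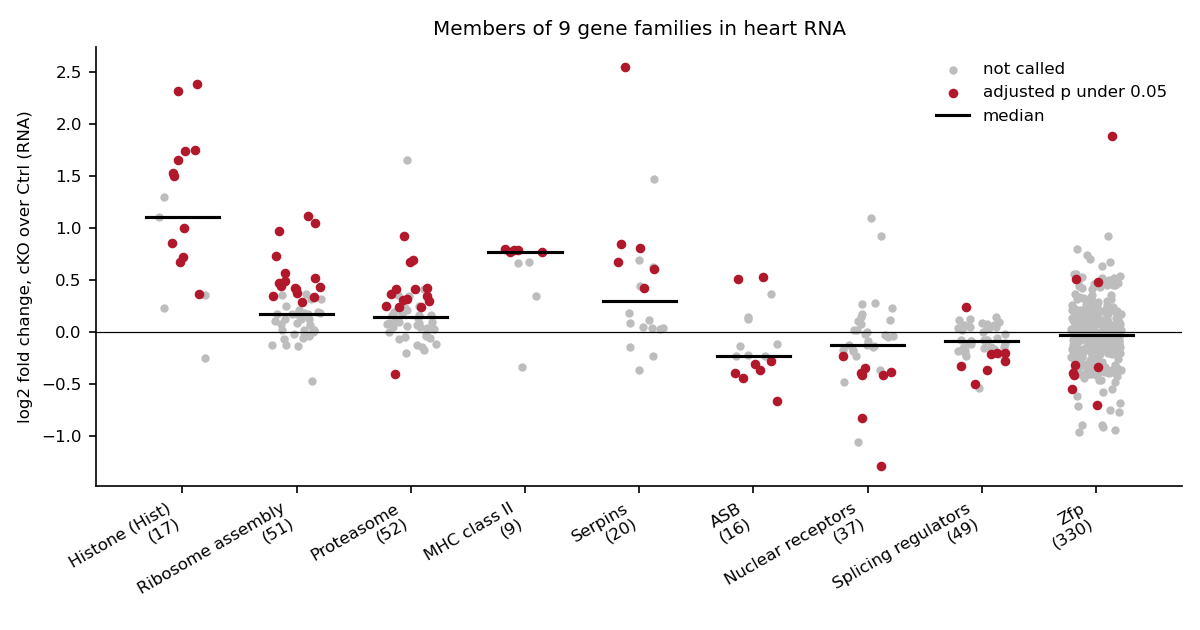
Each point is the RNA log2 fold change of cKO over Ctrl of a tested member, red where the adjusted p is under 0.05 and grey otherwise, and black lines are medians. Histone, MHC class II and serpin medians are the highest, ASB genes and nuclear receptors have medians of −0.22 and −0.12, and the 330 Zfp genes centre on −0.03. The histone and serpin medians include 7 and 4 genes that missed the low-count filter in a Ctrl library, so their rank carries little weight.

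Genes of the proteasome, which degrades ubiquitin-tagged proteins, were mostly higher where called. Of 18 tested alpha and beta subunits of the core particle 8 rose and none fell, and of 21 tested subunits of the regulatory particle 3 rose. Psmb10, an inducible beta subunit of the immunoproteasome, had 48.4 and 42.1 CPM in cKO, against 25.4 and 22.4 CPM in Ctrl (0.92, SE 0.10, edgeR adjusted p = 1.5e-05). Psmd14, the deubiquitinase of the regulatory particle, had 48.5 and 48.6 CPM in cKO, against 29.5 and 31.6 CPM in Ctrl (0.67, SE 0.08, edgeR adjusted p = 5.4e-05). In both genes the cKO libraries were apart from the Ctrl libraries. Psma5, Psma7 and Psmb3 rose by 0.42, 0.41 and 0.37, and Psmc4, an ATPase of the base, by 0.35. Psme4, the activator PA200, went the other way, with 162 and 151 CPM in cKO, against 212 and 202 CPM in Ctrl (−0.40, SE 0.06, edgeR adjusted p = 3.5e-04). Over all 52 tested proteasome genes 14 rose and 1 fell, and the risen genes numbered 7 without cKO 1, 9 in DESeq2 and 22 with library totals. The risen core and regulatory subunits numbered 4 and 3 without cKO 1, 5 and 4 without Ctrl 1, 5 and 3 in DESeq2, 9 and 9 with library totals, and 9 and 7 with the replicate block. Core and regulatory subunits were not tested against each other.

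Ubiquitin ligase genes of striated muscle split. The ASB genes encode substrate adaptors of cullin ligases, several of them made mainly in muscle, and of 16 tested members 6 fell and 2 rose (median −0.22). Asb14 had 40.7 and 37.4 CPM in cKO, against 65.3 and 58.1 CPM in Ctrl (−0.66, SE 0.08, edgeR adjusted p = 6.9e-05). Both cKO libraries lay below both Ctrl libraries. Asb10, Asb8 and Asb11 fell by 0.44, 0.36 and 0.31. The calls of Asb15 without cKO 1 and of Asb2 without cKO 1 or Ctrl 2 and with library totals were lost. Asb12 and Asb5 rose by 0.53 and 0.51, with the call of Asb12 lost in DESeq2 and without cKO 2 and that of Asb5 lost without cKO 1, so 1 risen gene was left in each. Trim54, a MURF ligase of the sarcomere, rose to 122 and 128 CPM in cKO, against 79.6 and 83.8 CPM in Ctrl (0.62, SE 0.07, edgeR adjusted p = 1.4e-05). Nedd4, a HECT ligase, had 514 and 494 CPM in cKO, against 609.8 and 610.4 CPM in Ctrl (−0.28, edgeR adjusted p = 0.00163).

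Autophagy genes were called in both directions. Sqstm1, the adaptor p62, had 649 and 641 CPM in cKO, against 463 and 431 CPM in Ctrl (0.53, SE 0.05, edgeR adjusted p = 9.0e-06). Optn, optineurin, had 66.7 CPM in both cKO libraries, against 45.6 and 44.2 CPM in Ctrl (0.57, SE 0.07, edgeR adjusted p = 6.4e-05). The groups did not overlap in either gene. Gabarapl1, which joins autophagosome membranes, rose by 0.35. Pink1, the kinase that marks damaged mitochondria, had 398 and 391 CPM in cKO, against 497 and 499 CPM in Ctrl (−0.34, SE 0.05, edgeR adjusted p = 3.5e-04). Bnip3, a mitophagy receptor, fell by 0.33, and Bcl2l13, another, by 0.30, with the call of Bcl2l13 lost without cKO 1. Of 38 tested autophagy genes 8 rose and 4 fell, so 31.6% were called, beside 14.4% of all genes. The risen numbered 4 without cKO 1, 3 without cKO 2, 5 without either Ctrl library and 3 in DESeq2, and the fallen 2 without cKO 1.

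Among the genes of excitation, Scn4b and Scn3b, beta subunits of sodium channels that set gating and placement of the pore, rose. Scn4b had 17.6 and 24.3 CPM in cKO, against 9.40 and 8.02 CPM in Ctrl (1.26, SE 0.16, edgeR adjusted p = 6.3e-05). Scn3b had 6.71 and 5.49 CPM in cKO, against 1.67 and 2.23 CPM in Ctrl (1.64, SE 0.24, edgeR adjusted p = 2.3e-04). In both genes each cKO library exceeded each Ctrl library, and the calls held without each library in turn. Footprints rose by 0.77 on Scn4b and 2.33 on Scn3b.

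Calcium channel genes moved in both directions. Cacna1h, a T-type pore subunit, had 36.2 CPM in both cKO libraries, against 18 and 15.9 CPM in Ctrl (1.09, SE 0.10, edgeR adjusted p = 3.0e-06). Cacna1c, the L-type pore of the adult heart, had 176 and 199.7 CPM in cKO, against 235 and 239.9 CPM in Ctrl (−0.34, SE 0.06, edgeR adjusted p = 0.00219). Cacna2d1, its alpha-2-delta subunit, had 109 and 105 CPM in cKO, against 159.7 and 141 CPM in Ctrl (−0.49, SE 0.07, edgeR adjusted p = 1.9e-04). Cacna1g, the other T-type pore subunit of the heart, fell by 0.65. Cacna1h was higher and the L-type genes were lower in both cKO libraries than in either Ctrl library. Of 26 tested sodium and calcium channel genes 5 rose and 5 fell. The fallen numbered 3 without cKO 1 and in DESeq2.

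Of 52 tested potassium channel genes 7 fell and 2 rose (median −0.11), so 17.3% were called, near the 14.4% of all genes. Both that rose missed the low-count filter in a Ctrl library, and of the 46 that reached it in both Ctrl libraries 0 rose. Kcnj3, a subunit of the acetylcholine-gated channel of atria and pacemaker cells, had 26.4 and 25.1 CPM in cKO, against 43.9 and 55.1 CPM in Ctrl (−0.94, SE 0.10, edgeR adjusted p = 2.2e-05). Kcnj2, of the inward rectifier that holds the resting potential, had 30.9 and 35.0 CPM in cKO, against 45.9 and 47.5 CPM in Ctrl (−0.51, SE 0.09, edgeR adjusted p = 9.2e-04). Neither gene overlapped between genotypes. Kcnc1, a fast delayed rectifier of neurons, had 1.56 and 2.33 CPM in cKO, against 0.0644 and 0.191 CPM in Ctrl (3.84, SE 0.58, edgeR adjusted p = 3.3e-04), and passed the filter only through its cKO libraries. The calls of Kcnd2 and Kcnip2, of the transient outward current, were lost without cKO 1. That of Kcnd2 was also lost in DESeq2, and that of Kcnip2 with library totals. The fallen genes numbered 3 without cKO 1 or in DESeq2, 4 with library totals and 11 with the replicate block, and the risen 1 without cKO 1 and 4 with library totals or the replicate block.

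**Figure D4:**
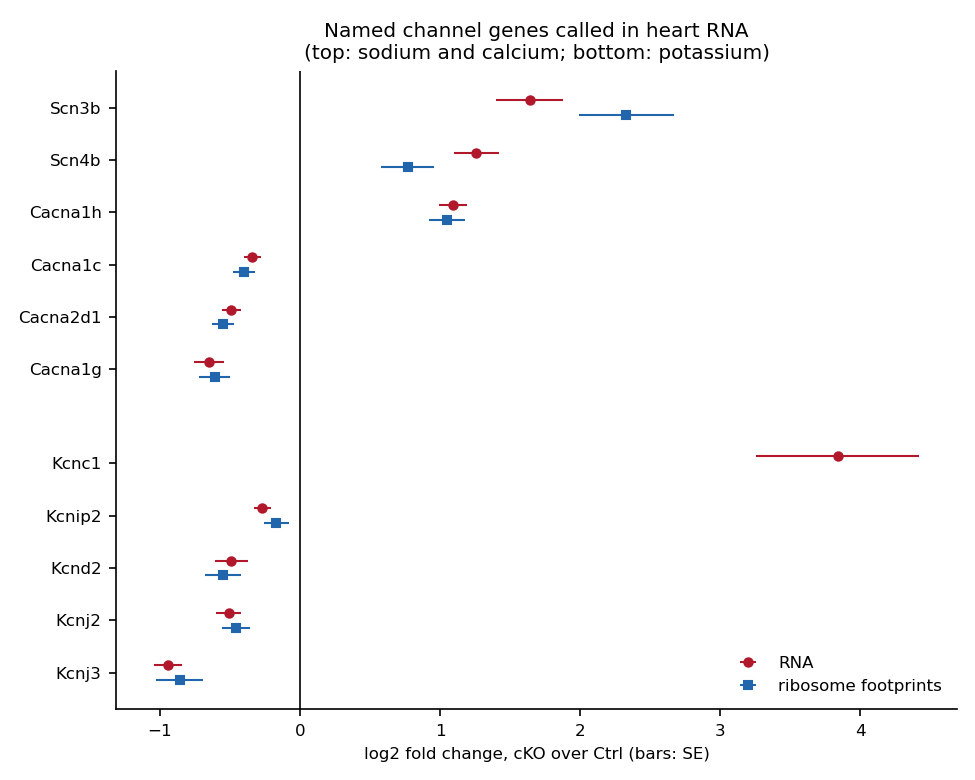
Points give the log2 fold change of cKO over Ctrl (bars: SE) of named channel genes called in heart RNA, in RNA (red circles) and in footprints (blue squares, where tested); sodium and calcium channel genes stand above potassium channel genes. Kcnc1, which has no footprint value, lies highest in RNA at 3.84, Scn3b, Scn4b and Cacna1h also lie above 1, and Kcnj3 is the lowest at −0.94.

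Transporters of ions and solutes were called in both directions, 22 higher and 22 lower of 237 tested solute carriers (median 0.00). That is 18.6% called, near the 14.4% of all genes. Slc17a7, which loads glutamate into vesicles, had 46.7 and 44.3 CPM in cKO, against 12.3 and 15 CPM in Ctrl (1.74, SE 0.11, edgeR adjusted p = 4.1e-08). Slc9a3, a sodium-proton exchanger, had 7.87 and 8.98 CPM in cKO, against 1.54 and 1.21 CPM in Ctrl (2.60, SE 0.23, edgeR adjusted p = 2.4e-06). Slc24a2, a sodium-calcium-potassium exchanger, had 6.54 and 6.59 CPM in cKO, against 1.22 and 1.15 CPM in Ctrl (2.46, SE 0.24, edgeR adjusted p = 7.0e-06). All these cKO levels stood far above Ctrl, with no overlap. Slc4a3, an anion exchanger of cardiomyocytes, had 152 and 154 CPM in cKO, against 202 and 201 CPM in Ctrl (−0.40, edgeR adjusted p = 2.2e-04), and Slc36a2, a proton-coupled amino acid carrier, fell by 0.72. The risen solute carriers numbered 11 without cKO 2 and 12 in DESeq2.

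Called genes for G protein-coupled receptors and, as a separate list, for cyclic nucleotide enzymes were mostly lower. Adra1b, an alpha-1 adrenergic receptor, had 30.1 and 28.1 CPM in cKO, against 51.5 and 52.5 CPM in Ctrl (−0.84, SE 0.08, edgeR adjusted p = 6.1e-06). Adra1a had 11.9 and 14.5 CPM in cKO, against 20.2 and 25.6 CPM in Ctrl (−0.80, SE 0.14, edgeR adjusted p = 8.5e-04). Chrm2, the muscarinic receptor of the heart, had 77.5 and 81 CPM in cKO, against 112 and 106 CPM in Ctrl (−0.46, SE 0.07, edgeR adjusted p = 2.1e-04). In each receptor both cKO libraries were below both Ctrl libraries. The phosphodiesterase genes Pde7b and Pde4d, whose enzymes break down cyclic AMP, fell by 0.75 and 0.52, and Prkaca, a catalytic subunit of protein kinase A, fell by 0.32. The net effect on cyclic AMP signalling was not tested. Of 41 tested cyclic nucleotide genes 7 fell and 1 rose, so 19.5% were called. Of 74 tested G protein-coupled receptors 8 fell and 2 rose, so 13.5% were called, near the 14.4% of all genes. Both medians were −0.05 and turned to 0.03 with library totals. The fallen cyclic nucleotide genes numbered 3 without cKO 1 or in DESeq2 and 4 without cKO 2 or with library totals, and the fallen receptors 5 without cKO 1 or cKO 2 and 4 in DESeq2 or with library totals. No receptor rose in DESeq2 or without cKO 2.

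Of 36 tested genes of A-kinase anchors and of calcineurin signalling 2 rose and 5 fell (median −0.09). That is 19.4% called, near the 14.4% of all genes. The fallen numbered 3 without cKO 1 or Ctrl 1, in DESeq2 or with library totals, and the risen 1 without cKO 2 or Ctrl 1. Rcan1, an inhibitor of calcineurin that the route itself induces, had 158 and 159 CPM in cKO, against 65.8 and 69.9 CPM in Ctrl (1.22, SE 0.06, edgeR adjusted p = 6.7e-09). Ppp3cb, a catalytic subunit of calcineurin, had 54.0 and 50.3 CPM in cKO, against 74.0 and 77.1 CPM in Ctrl (−0.53, SE 0.07, edgeR adjusted p = 1.2e-04). Neither gene overlapped between genotypes. Footprints rose by 1.63 on Rcan1 and fell by 0.61 on Ppp3cb.

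At cell contacts, genes of the intercalated disc, which joins cardiomyocytes end to end, were called in both directions. Xirp2, an actin-binding protein of the intercalated disc, had 191 and 209 CPM in cKO, against 127 and 119 CPM in Ctrl (0.70, SE 0.07, edgeR adjusted p = 4.1e-06). Nrap, which anchors new myofibrils, had 680.2 and 698 CPM in cKO, against 519 and 537 CPM in Ctrl (0.38, SE 0.05, edgeR adjusted p = 1.0e-04). Fat1, an atypical cadherin, rose by 0.54. Ctnna3, the alpha-catenin of the area composita, had 23 and 21.3 CPM in cKO, against 30.8 and 32.8 CPM in Ctrl (−0.52, SE 0.09, edgeR adjusted p = 0.00164), and Lmo7, a LIM domain protein, fell by 0.30. All of these genes were apart between genotypes. Of 25 tested disc genes 3 rose and 5 fell, the fallen numbering 3 without cKO 1 or Ctrl 2, 2 with library totals beside 5 risen, and the median of −0.06 turning to 0.03 with library totals.

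Filaments and membrane scaffolds also moved both ways. Flnc, the muscle filamin, had 428 and 429 CPM in cKO, against 281 and 274 CPM in Ctrl (0.63, SE 0.05, edgeR adjusted p = 1.5e-06). Des, desmin, the muscle intermediate filament, had 2271 and 2319 CPM in cKO, against 1686 and 1548 CPM in Ctrl (0.51, SE 0.05, edgeR adjusted p = 7.2e-06). Krt18 and Krt80, keratins better known from epithelia, rose by 1.32 and 1.05, and Nes, nestin, fell by 0.49. Sntb1, a syntrophin of the dystrophin complex, had 34.1 and 35.5 CPM in cKO, against 12.2 and 11.6 CPM in Ctrl (1.55, SE 0.10, edgeR adjusted p = 1.0e-07), while Dmd, dystrophin, fell by 0.44. Sntb1 was higher in both cKO libraries and Dmd was lower, without overlap. Cavin4, the muscle cavin, rose by 0.44, and Cavin2 fell by 0.32. Trdn, triadin, of the calcium release unit, fell by 0.42, and Tcap, which caps titin at the Z-disc, by 0.26. Itga9, an integrin, rose by 0.59, Itgb1bp2, melusin, which binds integrin tails in muscle, fell by 0.54, and Anxa5 and Anxa7, annexins that bind membranes with calcium, rose by 0.46 and 0.29.

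Nuclear receptors that were called were lower in cKO: of 37 tested 8 fell and none rose (median −0.12). That is 21.6% called, beside 14.4% of all genes. Nr4a2, an orphan receptor of the early-response group, had 4.92 and 6.14 CPM in cKO, against 15.1 and 11.8 CPM in Ctrl (−1.29, SE 0.17, edgeR adjusted p = 9.1e-05). Rxrg, a retinoid X receptor, had 41.1 and 40.5 CPM in cKO, against 51.7 and 56.5 CPM in Ctrl (−0.41, SE 0.08, edgeR adjusted p = 0.00232). Ppara, the fatty acid receptor, fell by 0.39. The cKO libraries lay below the Ctrl libraries in each. The fallen numbered 4 without cKO 1 and with library totals and 3 in DESeq2; 1 receptor rose with library totals and 1 with the replicate block. Of 26 tested clock genes 2 rose and 4 fell, so 23.1% were called, beside 14.4% of all genes. The fallen clock genes numbered 1 without cKO 1, cKO 2 or Ctrl 1, in DESeq2 and with library totals. Arntl, the BMAL1 factor of the circadian oscillator, had 13.7 and 16.5 CPM in cKO, against 8.69 and 9.93 CPM in Ctrl (0.70, SE 0.14, edgeR adjusted p = 0.00303). Bhlhe41, a repressor in the same loop, rose by 0.58, and Hlf, a PAR bZIP factor that the clock drives, fell by 0.41, a call lost without cKO 2. The labels do not give the time of day at which hearts were taken. Hopx, a homeodomain cofactor of cardiac differentiation, fell by 0.35. Of 330 tested Zfp genes 3 rose and 6 fell, which is 2.73%, beside the 14.4% of all genes; without cKO 1, 1 rose and 2 fell, and in DESeq2 2 rose and 2 fell. Of 49 tested splicing regulators 7 fell and 1 rose, so 16.3% were called, near the 14.4% of all genes. The median of these regulators was −0.09, and −0.01 with library totals. Rbfox1, a neuron and muscle splicing factor, fell by 0.50. The fallen splicing genes numbered 2 without cKO 1, 3 without Ctrl 1 or in DESeq2, 4 with library totals and 11 with the replicate block.

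Genes of MHC class II, which shows peptides to CD4 T cells, were higher where called. Of 9 tested genes 5 rose, 4 did not pass and none fell (median 0.77). Cd74, the invariant chain and the most abundant, had 90.3 and 95.5 CPM in cKO, against 48.6 and 58.8 CPM in Ctrl (0.79, SE 0.08, edgeR adjusted p = 1.5e-05). H2-Aa had 47.4 and 48.6 CPM in cKO, against 25.9 and 29.1 CPM in Ctrl (0.80, SE 0.09, edgeR adjusted p = 1.7e-05), and H2-Eb1 had 30.5 and 32.3 CPM in cKO, against 16.7 and 20.1 CPM in Ctrl (0.77, SE 0.11, edgeR adjusted p = 1.6e-04). No cKO library overlapped a Ctrl library in these genes. H2-Ab1 rose by 0.79 and H2-DMa, which helps load peptides, by 0.77, with the call of H2-DMa lost in DESeq2 and without cKO 2. Ciita, the coactivator that switches class II genes on, had 2.02 and 2.26 CPM in cKO, against 1.54 and 1.15 CPM in Ctrl and was not called (edgeR adjusted p = 0.195).

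Class II genes are made by dendritic cells, B cells and some macrophages, so the markers of those cells stand beside them. None of 10 macrophage markers passed edgeR's test, 4 had an unadjusted p under 0.05, DESeq2 and limma-voom called 0 and 0, their median log2 fold change was 0.13, and their summed level was 875 and 799.5 CPM in cKO, against 754 and 785 CPM in Ctrl. Of 9 lymphocyte markers only 2 could be tested, none of these passed edgeR's test, 0 had an unadjusted p under 0.05, and DESeq2 and limma-voom called 0 and 0. Their sums were 9.41 and 8.52 CPM in cKO, against 10.0 and 10.2 CPM in Ctrl. Of 9 tested dendritic cell genes 2 rose: Itgax had 1.97 and 1.68 CPM in cKO, against 0.193 and 0.700 CPM in Ctrl, and Ccr2 had 2.37 and 3.04 CPM in cKO, against 1.35 and 1.40 CPM in Ctrl. Itgax missed the filter of 0.622 CPM in Ctrl 1 and so passed it through other libraries. The call of Itgax was lost without cKO 1 or Ctrl 1, and that of Ccr2 in DESeq2, in limma-voom and without any one library. The part of such cells in the class II values was not tested.

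The promoters of H2-Aa and H2-Eb1 are shown because class II promoters are known for a Y box, an inverted CCAAT element, close to the start. They are the 250 bases before the start from RefSeq (GRCm38.p6), at chr17:34287824-34288073 on the minus strand for H2-Aa and at chr17:34305617-34305866 on the plus strand for H2-Eb1. Capitals mark CCAAT on either strand.
H2-Aa: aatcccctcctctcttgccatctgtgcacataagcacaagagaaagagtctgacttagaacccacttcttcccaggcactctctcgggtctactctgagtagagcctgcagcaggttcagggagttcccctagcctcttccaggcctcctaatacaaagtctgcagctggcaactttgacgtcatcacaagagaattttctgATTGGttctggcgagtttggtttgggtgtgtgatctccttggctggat
H2-Eb1: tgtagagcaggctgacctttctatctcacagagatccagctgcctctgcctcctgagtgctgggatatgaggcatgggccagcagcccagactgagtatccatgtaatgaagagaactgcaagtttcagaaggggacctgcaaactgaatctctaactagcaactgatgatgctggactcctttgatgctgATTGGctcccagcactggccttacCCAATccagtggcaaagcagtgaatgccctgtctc
The inverted element ATTGG begins 48 bases before the start in H2-Aa and 59 bases before it in H2-Eb1, and H2-Eb1 also holds CCAAT in the direct orientation 35 bases before the start. CCAAT occurred in 6 of the 6 tested class II genes with a promoter entry, against 37.49% of all promoters. Of these 6 genes 3 rose.

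Genes for secreted signals and their receptors were called in both directions. Edn3, an endothelin that acts on vessels and neural crest cells, had 15.4 and 11.8 CPM in cKO, against 0.451 and 1.72 CPM in Ctrl (3.64, SE 0.30, edgeR adjusted p = 1.3e-06), and missed the low-count filter in Ctrl 1. Tgfb2 had 23.5 and 25.6 CPM in cKO, against 10.9 and 11.9 CPM in Ctrl (1.11, SE 0.11, edgeR adjusted p = 1.0e-05), and Fstl3, which binds activins, had 7.81 and 6.59 CPM in cKO, against 2.38 and 2.04 CPM in Ctrl (1.71, SE 0.22, edgeR adjusted p = 7.1e-05). Each cKO library was above each Ctrl library in these genes. Fgf1 had 201 and 203 CPM in cKO, against 308 and 303 CPM in Ctrl (−0.60, SE 0.05, edgeR adjusted p = 3.5e-06), and Angpt1, a ligand that steadies vessels, had 8.39 and 6.2 CPM in cKO, against 14.4 and 14.1 CPM in Ctrl (−0.95, SE 0.15, edgeR adjusted p = 4.9e-04). Tnfrsf12a, the receptor of the TWEAK cytokine, had 112 and 113 CPM in cKO, against 31.5 and 36.2 CPM in Ctrl (1.73, SE 0.08, edgeR adjusted p = 1.5e-09). The guidance genes Ephb3 and Ntng2 rose by 0.97 and 1.02, and Sema6c fell by 1.05. The Wnt receptor gene Fzd2 rose by 0.91, and Dusp4, which switches off MAP kinases, by 1.78.

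Serpins, which block serine proteases, were another family with calls in 1 direction. Of 20 tested serpins and cystatins, of 78 in the table, 6 rose and none fell (median 0.30), though 4 of the 20 missed the filter in a Ctrl library. Serpinb6b had 56 and 58.8 CPM in cKO, against 32.6 and 31.0 CPM in Ctrl (0.85, SE 0.08, edgeR adjusted p = 4.0e-06). Both cKO libraries were well above both Ctrl libraries. Serpinb9, which blocks granzyme B, and Serpina3n rose by 0.81 and 0.67. Serpinb genes lie in a cluster of close copies, so values of single members are uncertain.

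Genes that coat and fill lipid droplets were mostly lower where called. Of 30 tested genes of droplets and neutral lipid 8 fell and 2 rose (median −0.10). That is 33.3% called, beside 14.4% of all genes. In DESeq2 or without any one library 1 rose. Plin5 and Plin4, which coat droplets, fell by 0.35 and 0.31, Fitm1, which helps droplets form, by 0.46, and Lpin1, a phosphatidate phosphatase, by 0.44. Plin5 had 121 and 114 CPM in cKO, against 149 and 150.5 CPM in Ctrl. Gpam, which starts glycerolipid synthesis, had 384 and 404 CPM in cKO, against 295 and 294 CPM in Ctrl (0.42, SE 0.05, edgeR adjusted p = 8.6e-05), and Gpd1, which makes glycerol 3-phosphate, had 116 and 113 CPM in cKO, against 65.8 and 67.8 CPM in Ctrl (0.78, SE 0.06, edgeR adjusted p = 1.4e-06). Plin5 was lower and both glycerolipid enzymes were higher in each cKO library. Among phosphate carriers, Ckmt2, the mitochondrial creatine kinase, had 1453 and 1463 CPM in cKO, against 1961 and 1958 CPM in Ctrl (−0.43, SE 0.04, edgeR adjusted p = 1.3e-05), Adk, adenosine kinase, fell by 0.48, and Nt5e, which makes adenosine outside cells, rose by 0.62. Gsto1, an omega-class glutathione transferase, had 265 and 252 CPM in cKO, against 111 and 103 CPM in Ctrl (1.28, SE 0.06, edgeR adjusted p = 3.0e-09), and Akr1b10, an aldo-keto reductase, fell by 0.70.

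Several genes with large changes belong to no list above. Klhdc7a, a kelch protein, had 31.4 and 35.6 CPM in cKO, against 5.02 and 3.69 CPM in Ctrl (2.94, SE 0.14, edgeR adjusted p = 3.0e-09). It was several-fold higher in each cKO library. Rasgef1a, an exchange factor for Ras-like proteins, rose by 3.52, Bex1 by 3.06, Klrg2 by 3.15 and Cyp2b10, a cytochrome P450 known from liver, by 3.05, but Bex1 missed 0.622 CPM in Ctrl 2 and the other three in both Ctrl libraries, so they entered the test through their cKO libraries. Rhbdl3, a rhomboid-family gene, had 9.89 and 8.73 CPM in cKO, against 23.4 and 22.4 CPM in Ctrl (−1.29, SE 0.12, edgeR adjusted p = 3.4e-06). Smco1 fell by 1.09, Cryz, a quinone reductase, by 1.06, Phkg1, the muscle catalytic subunit of phosphorylase kinase, by 1.0, and Ccrl2, a chemokine-binding receptor, by 0.97. No library of these genes overlapped between genotypes.

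Footprints gave a second value for the families. Core proteasome subunits rose in 6 of 18, MHC class II genes in 4 of 8, ribosome-building genes in 23 of 51, and the ASB genes fell in 5 of 16 with 1 rising, where 16.4% of 13514 genes were called in footprints, 9.11% higher and 7.33% lower. Of the 12 histone genes called in RNA only Hist1h2bc and Hist2h2be were called in footprints; the difference between the assays was not tested. Footprint libraries of different depth were used, 39.68 and 34.08 M footprints in cKO and 25.17 and 33.78 M in Ctrl.

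**Figure D5:**
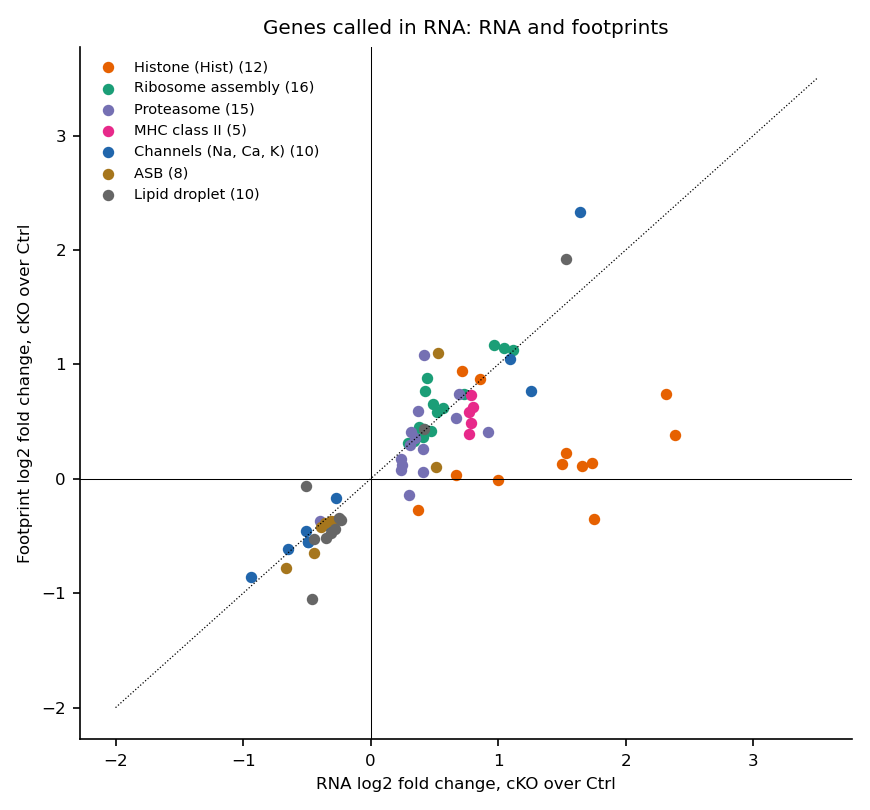
Each point is a gene called in RNA, with its RNA log2 fold change (horizontal) and its footprint log2 fold change (vertical), both of cKO over Ctrl, coloured by family with the number of genes in brackets; the dotted line marks equal values. Most families lie near the line, while most histone points lie below it, such as Hist1h1c at 0.67 in RNA and 0.03 in footprints.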

How the data were processed

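Heart RNA-seq of cKO and Ctrl mice was analysed, with heart Ribo-seq of the same genotypes as a second value. The authors deposited read counts per gene and footprint counts per reading frame, as whole numbers whose totals differ between libraries, so they were read as unnormalized counts. The submitters' processing notes name the build GRCm38, the aligners Bowtie, Bowtie2, HISAT2 and STAR, the trimmer cutadapt, and featureCounts, StringTie and DESeq2, without roles; strand setting, annotation and multi-mapping rules are not given in the sources at hand. Of 55487 gene IDs 55141 have a symbol. For footprints the frame with the most footprints per gene was kept (98.914% of footprints). H9C2 and tRNA samples were not used here.

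Counts were tested with edgeR 4.0.16 in R 4.3.3 (glmQLFit, glmQLFTest, TMM, filterByExpr), cKO against Ctrl, 2 libraries each, with Benjamini-Hochberg adjustment at 0.05. SE is the absolute log2 fold change divided by the square root of F. On simulated counts for 13890 genes the test recovered 88.5% of 2-fold and 99% of 4-fold changes. The simulation gave all genes a common spread and changed 100 genes at each fold, so it does not give the recovery of low or more variable genes. Library totals of 15.05 to 16.84 M counts limit precision for low genes. Alternatives were relative-log-expression factors, library totals, DESeq2 1.42.0, limma-voom (limma 3.58.1), 2 other count filters, a replicate block, a 2-fold threshold and leaving out each library.

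The members and the lists (70, with 11 added after the data were seen) were chosen with earlier results of these data known. The naming rule took Mettl1, Wdr4, genes within 250 kb, the 20 largest changes per direction among called genes that averaged 1 CPM or more and did not overlap between genotypes, up to 4 members per list by adjusted p, up to 2 called against the list's majority, and the most abundant member. The text names some of those, preferring calls that held without each library, and 42 genes outside the rule, chosen after their values were seen: Asb11, Asb12, Asb15, Asb2, Asb5, Asb8, Cacna1c, Cacna1g, Cavin2, Ccr2, Ccrl2, Ciita, Ctnna3, H1f0, H2-DMa, H2afj, H2afy, Hist1h1d, Hist1h1e, Hist1h2ac, Hist1h3d, Hist1h3f, Hist1h3i, Hist1h4h, Hist2h2be, Itgax, Kcnd2, Kcnip2, Mki67, Mtap, Plin4, Plin5, Psma5, Psmb3, Psmc4, Rrp1, Scn3b, Serpina3n, Slbp, Slc36a2, Slc4a3 and Top2a. Marker lists of 15 cell types were read beside the results. Some genes are not reported here. Other sample columns in the tables numbered 0.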

Additional observations from a re-analysis of the deposited data

How the results depend on the processing

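The RNA counts of 1150 higher and 882 lower genes became 1769 and 506 with library totals, 623 and 457 in DESeq2, and 265 and 27 with a 2-fold threshold. Leaving out a library gave 634 to 1069 higher and 521 to 933 lower genes, with the lowest counts without cKO 1. The footprint counts of 1231 higher and 990 lower became 336 and 69 with the 2-fold threshold; library totals gave 657 lower genes. Leaving out a footprint library gave 667 to 1010 higher and 481 to 930 lower genes. The cause of these differences was not tested, except that a 2-fold threshold takes a subset by construction. Library totals shift log2 fold changes of all genes by about 0.08, so list medians of −0.05 and −0.06 turned to 0.02 or 0.03.

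Of the 150 named genes past the threshold in RNA, 128 stayed past it under every alternative but the 2-fold threshold, which was counted only over all genes, 22 were lost without at least one library, 13 in DESeq2 and 4 with library totals, and none changed direction. Same-numbered libraries of the genotypes did not deviate together (correlation 0.00922 in RNA, −0.0404 in footprints). With 2 libraries a genotype this cannot settle whether the numbers pair them, and the labels do not say. A fit with the replicate number as a block gave 1455 higher and 1290 lower genes in RNA and 1472 and 1255 in footprints, and lost 0 of the named calls. With 2 libraries a genotype and about 15 to 17 M counts, 88.5% of simulated 2-fold changes were recovered when all genes were given a common spread. This share does not give the power for low or more variable genes, so lists without calls are not shown to be unchanged.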

Other observations

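Long noncoding RNAs were called about as often as all genes, 13.4% beside 14.4%. Of 491 tested, 49 (9.98%) were higher and 17 (3.46%) lower in cKO (median log2 fold change 0.09). Of 12913 protein-coding genes 1072 (8.30%) were higher and 843 (6.53%) lower. The split between directions was not tested between these groups. Of 186 tested pseudogenes 4 were higher and 2 lower. Among 51 tested genes of NF-kappaB, toll-like receptors and the inflammasome none passed edgeR's test, DESeq2 or limma-voom, and 4 had an unadjusted p under 0.05. Of 49 tested genes of DNA repair and checkpoints 1 rose and 1 fell, and of 21 Notch pathway genes 1 fell.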
